A study of Mus musculus with 8 samples.

Results

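The genes described here encode the mouse MHC class I molecule and the machinery that loads it with peptide. The set holds 10 genes, taken by symbol from the platform annotation, and 12 probe sets of the array name at least 1 of them. Each gene's probe set was chosen by its mean signal over the 8 arrays together, the brightest being taken even if it names several genes, and no other measured value entered that choice. The set itself was put together with earlier results of these arrays known, B2m's difference among them, so the differences below describe these arrays and support nothing further. The classical heavy chains H2-K1 and H2-D1 are named by the same probe sets and got the same one, so 9 probe sets stood for the 10 genes, out of 35556 probe sets on the array and 21559 features tested; the annotation names 21335 genes in all.

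All mice were wild type C57Bl/6j males of 8 weeks. Hemophagocytes, macrophages that have engulfed blood cells, came from the spleens of mice given 4 intraperitoneal doses of 37.5 ug CpG1826, an oligonucleotide agonist of a Toll-like receptor, with 200 ug of the antibody clone 1B1.3A, which blocks the IL-10 receptor. Resting splenic macrophages came from mice given 4 doses of 200 uL PBS. Each group had 4 Affymetrix mouse Gene ST 1.0 arrays, numbered 2, 3, 5 and 6 for hemophagocytes and 3, 4, 5 and 6 for resting macrophages, and each was made from laser-captured cells, 20 per mouse, that were pooled. Macrophages free of engulfed cells from treated mice were not analysed here, so engulfment and treatment cannot be told apart, and in such pools fewer cells of a type and less RNA per cell cannot be told apart either.

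Class I molecules show peptides from inside the cell to cytotoxic T cells. A heavy chain pairs with the invariant light chain, beta-2 microglobulin, in the endoplasmic reticulum, where the TAP transporter brings in peptides from the cytosol, tapasin and its relatives hold the empty molecule and edit its cargo, and aminopeptidases trim peptides to length. Interferons raise most of these genes in macrophages, and the factor NLRC5 acts on the promoters of many of them.

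All values are log2 signals, and the array medians were 6.10 to 6.17. As a gauge of background, 1190 olfactory and vomeronasal receptor genes, which belong to sensory neurons, averaged 5.75 to 6.07 on the hemophagocyte arrays and 5.99 to 6.16 on the resting arrays, and their 95th percentile lay at 7.41 to 7.72 and at 7.69 to 7.81. Probe sets differ in base composition, so this gauge is rough. Of 13 macrophage markers, 1, 4, 5 and 0 lay above that percentile on hemophagocytes 2, 3, 5 and 6, against 0 to 1 on the resting arrays, so most markers of the labelled cell type were not distinguished from background. High outlying values were counted as genes more than 1 log2 unit over their 8-array median. There were 13, 154, 159 and 30 of them on hemophagocytes 2, 3, 5 and 6, against 7 to 16 on each resting array.

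The promoters of B2m, the member with the largest difference, of H2-K1, a heavy chain that pairs with it, and of Tap1, whose signal was level, show how the sequences next to these genes compare. They are RefSeq sequences of GRCm38.p6, from 250 bases before to 50 after the annotated start, 5′ to 3′ on the gene's strand: chr2:122147437-122147736 (plus strand), chr17:34000298-34000597 (minus strand, the first of 2 starts listed) and chr17:34187306-34187605 (plus strand). Capitals mark every match, on either strand, to 4 motifs: GAAA, any 2 bases, GAAA (interferon response type); GGG, any 5 bases, CC (NF-kB type); TGACGC (X2 box type); or CCAAT (Y box); neighbouring matches run together.
B2m: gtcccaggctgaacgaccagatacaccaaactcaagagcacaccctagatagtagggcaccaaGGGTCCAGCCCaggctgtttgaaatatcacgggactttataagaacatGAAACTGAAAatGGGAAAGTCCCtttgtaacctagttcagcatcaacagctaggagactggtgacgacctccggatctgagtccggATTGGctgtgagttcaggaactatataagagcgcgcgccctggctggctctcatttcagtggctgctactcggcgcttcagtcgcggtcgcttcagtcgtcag
H2-K1: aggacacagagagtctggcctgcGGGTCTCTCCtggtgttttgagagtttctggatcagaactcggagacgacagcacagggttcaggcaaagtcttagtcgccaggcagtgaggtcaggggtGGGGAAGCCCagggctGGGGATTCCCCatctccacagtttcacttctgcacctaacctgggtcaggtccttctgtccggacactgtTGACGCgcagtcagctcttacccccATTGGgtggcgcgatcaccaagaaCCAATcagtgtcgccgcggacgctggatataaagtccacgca
Tap1: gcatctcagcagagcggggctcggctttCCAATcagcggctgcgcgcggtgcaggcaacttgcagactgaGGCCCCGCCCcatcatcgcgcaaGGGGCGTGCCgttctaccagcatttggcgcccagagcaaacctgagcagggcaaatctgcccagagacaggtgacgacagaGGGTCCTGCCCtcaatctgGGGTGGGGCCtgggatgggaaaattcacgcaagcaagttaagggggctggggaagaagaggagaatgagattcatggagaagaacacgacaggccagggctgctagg
Promoters were listed for 8 of the 10 genes. B2m had an interferon response type match at -139 relative to its start and a Y box at -53. It had 4 NF-kB type matches in 2 overlapping pairs, at -187 and -186 and at -127 and -126. The H2-K1 window had 4 NF-kB type matches, 2 of them overlapping at -111 and -110, an X2 box type match at -41 and 2 Y boxes. It held no match to the interferon response letters used here. Tap1 had 5 NF-kB type matches, 2 of them overlapping at -76 and -75, and 1 Y box. Over the 8 promoters, 3 held the interferon response type (B2m, H2-T23 and Erap1), against 3.44% of 32851 RefSeq promoter windows of the same length. The NF-kB type was in 5 of 8, against 50.79% of windows, the X2 box type in 3 (H2-K1, H2-D1 and H2-M3), against 7.4%, and the Y box in 7, against 37.41%. Such matches are letters in a window and were not tied to any signal. Only exact matches were counted, so a window without a match may still hold a variant of the element.

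B2m, the light chain shared by all class I molecules, had the widest difference of the set. Its signal was 5.17, 10.25, 10.34 and 9.67 on hemophagocytes 2, 3, 5 and 6, against 4.60, 6.08, 5.19 and 4.99 on resting macrophages 3, 4, 5 and 6. Hemophagocytes 3, 5 and 6 were high, hemophagocyte 2 was within the resting range, and the groups therefore overlapped. Within the hemophagocytes, the nearest of the 3 high arrays lay 22.7-fold above hemophagocyte 2, while the resting arrays spanned 1.48 log2 units in all. The mean was 8.86 ± 2.48 in hemophagocytes and 5.22 ± 0.63 in resting macrophages (SD, n = 4 each). The difference of 3.64 (SE 1.00) corresponds to 12.5-fold, with a 95% interval of 2.64-fold to 59.0-fold that is not adjusted for the number of features. That SE and interval take a common spread for both groups, although the SDs were 2.48 and 0.63, so the interval may be too narrow. In an alternative limma fit with an intensity trend and a robust prior, the SE was 1.26. In limma's fit over all features B2m did not pass (adjusted p = 0.736). On hemophagocytes 3, 5 and 6 B2m lay above 100% of the receptor genes, on hemophagocyte 2 above 22.7% of them, and on the resting arrays above 13.4% to 41.8%. Whether B2m transcript was present at all on the low arrays cannot be told, so the fold is against a level that may be background. Without hemophagocyte 2 the difference was 4.87 and limma's adjusted p = 0.00191. That fit leaves out the hemophagocyte array whose B2m value lay within the resting range, so nothing is read from its p. With hemophagocyte 2 left in, and each other array left out in turn, adjusted p was 0.593 to 0.964. Leaving out hemophagocytes 3 and 5 together, the difference was 2.20 (adjusted p = 0.957).

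H2-K1 and H2-D1, the heavy chains that present peptide to cytotoxic T cells in C57Bl/6j mice, differed in the same direction by far less. Their shared probe set, whose annotation also names LOC547349, stood at 7.53, 8.12, 8.08 and 8.11 on hemophagocytes 2, 3, 5 and 6, against 7.34, 7.80, 7.20 and 7.39 on resting macrophages 3, 4, 5 and 6. The arrays that were high for B2m were high here too, hemophagocyte 2 fell between resting macrophages 6 and 4, and the groups overlapped. The mean was 7.96 ± 0.29 in hemophagocytes and 7.43 ± 0.26 in resting macrophages (SD, n = 4 each), a difference of 0.52 (SE 0.16) or 1.44-fold (95% interval 1.12 to 1.85) that did not pass in limma (adjusted p = 0.736). Of the heavy-chain probe sets standing for the set, this 1 lay above the receptor genes' 95th percentile on 3 hemophagocyte arrays and 0 resting arrays. Without hemophagocyte 2 the difference was 0.67 (adjusted p = 0.244). The second probe set that names these genes was dimmer, at 6.47 to 6.90 on hemophagocyte arrays and 6.32 to 6.78 on resting arrays, with a difference of 0.21 (SE 0.13). No probe set of the array separated H2-K1 from H2-D1.

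**Figure D1:**
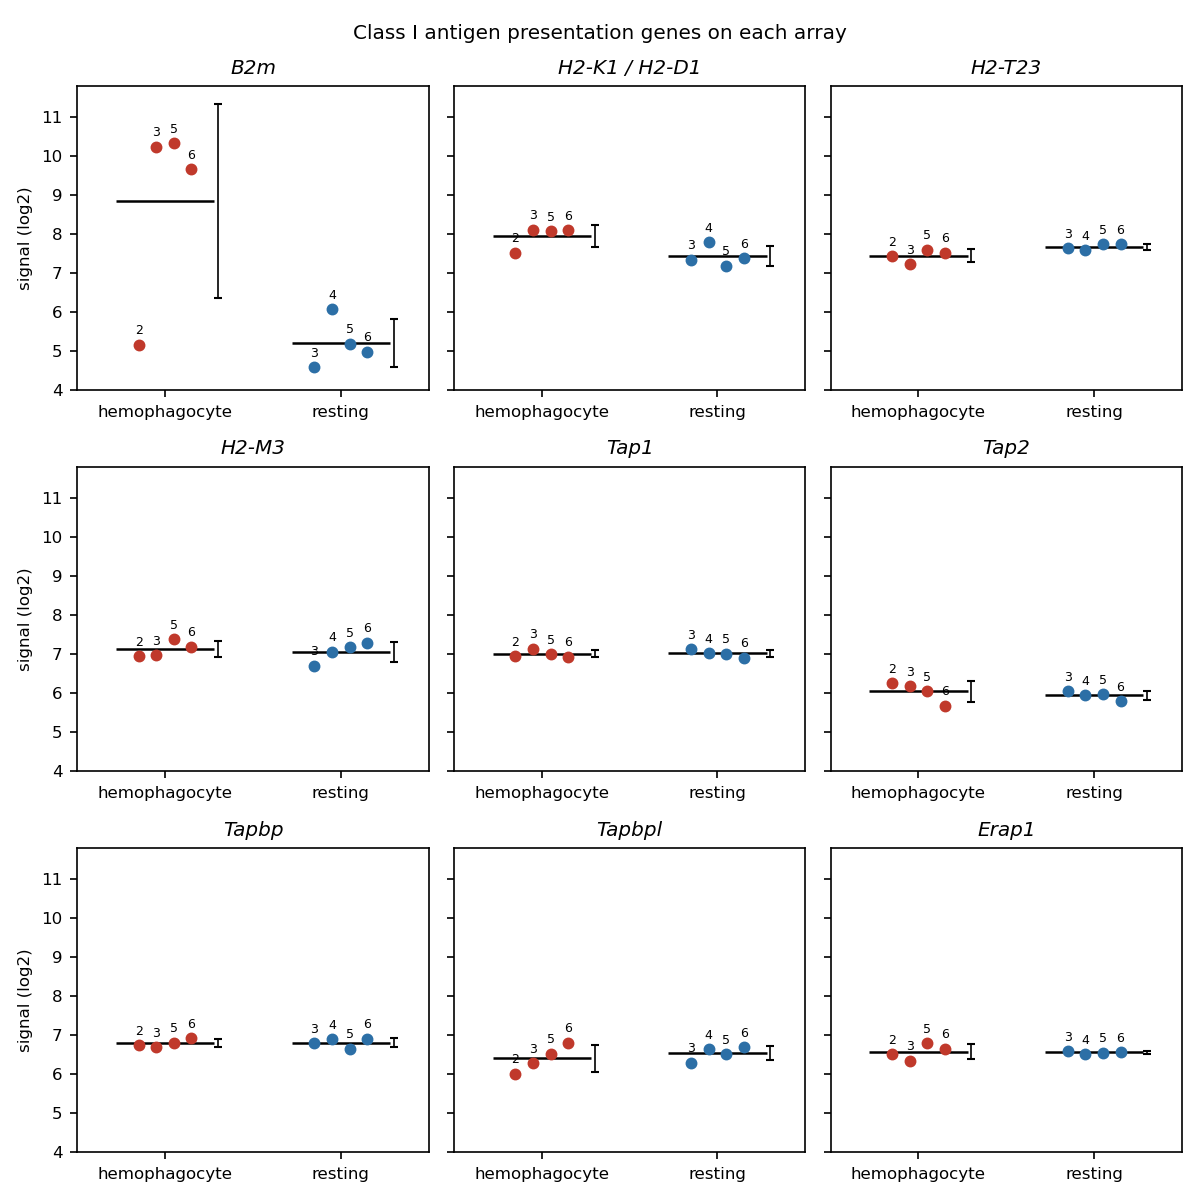
Signal (log2) of the 9 probe sets that stood for the 10 genes, 1 point per array with its replicate number, hemophagocytes left in red and resting macrophages right in blue; lines are means and bars SD (n = 4 each). B2m reached 9.67 to 10.34 on 3 hemophagocyte arrays and 5.17 on the other, against 4.60 to 6.08 on resting arrays, while each other panel spans less than 1 unit.

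The non-classical heavy chains did not follow. H2-T23 encodes Qa-1, which presents leader peptides of other class I chains to receptors of natural killer cells. Its probe set, which also names H2-T-ps, stood at 7.44, 7.24, 7.61 and 7.53 on hemophagocytes 2, 3, 5 and 6, against 7.65, 7.59, 7.75 and 7.75 on resting macrophages 3, 4, 5 and 6. Hemophagocyte 5 alone reached into the resting range, just above resting macrophage 4. The mean was 7.45 ± 0.16 in hemophagocytes and 7.68 ± 0.08 in resting macrophages, a difference of -0.23 (SE 0.09) that did not pass (limma adjusted p = 0.736). H2-M3, which presents formylated peptides of bacteria and mitochondria, ran from 6.95 to 7.39 in hemophagocytes and from 6.71 to 7.30 in resting macrophages, with a difference of 0.06 (95% interval -0.25 to 0.38). Neither probe set rose above the receptor genes' 95th percentile on any array.

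The peptide transporter genes showed no clear difference on the arrays. Tap1, 1 chain of the transporter, stood at 6.96, 7.15, 7.01 and 6.94 on hemophagocytes 2, 3, 5 and 6, against 7.13, 7.03, 7.01 and 6.92 on resting macrophages 3, 4, 5 and 6. The values were interleaved, and the difference was -0.01 (95% interval -0.18 to 0.16, or 0.885-fold to 1.12-fold). Tap2, the other chain, ran from 5.68 to 6.27 in hemophagocytes and from 5.80 to 6.06 in resting macrophages, and its lowest value was that of hemophagocyte 6. Its difference was 0.10 (95% interval -0.18 to 0.38).

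Loading and trimming genes showed no clear difference either, and the interval for Tapbpl was the widest of them. Tapbp, which encodes tapasin, the bridge between the transporter and the empty heavy chain, ran from 6.70 to 6.93 in hemophagocytes and from 6.66 to 6.91 in resting macrophages, a difference of -0.02 (95% interval -0.20 to 0.17). Tapbpl, which encodes the tapasin relative TAPBPR, a peptide editor outside the loading complex, ran from 6.02 to 6.81 in hemophagocytes and from 6.30 to 6.70 in resting macrophages, a difference of -0.13 (95% interval -0.48 to 0.23). Erap1, the aminopeptidase known as ERAAP in mice, ran from 6.35 to 6.80 in hemophagocytes and from 6.51 to 6.60 in resting macrophages, a difference of 0.02 (95% interval -0.19 to 0.23). Of the receptor genes, 32.5% to 91.3% lay below the Tap1, Tap2, Tapbp, Tapbpl and Erap1 values on hemophagocyte arrays and 33.8% to 85.3% on resting arrays. The intervals therefore bound the array signal, and transcripts below the array's background would not show in them.

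**Figure D2:**
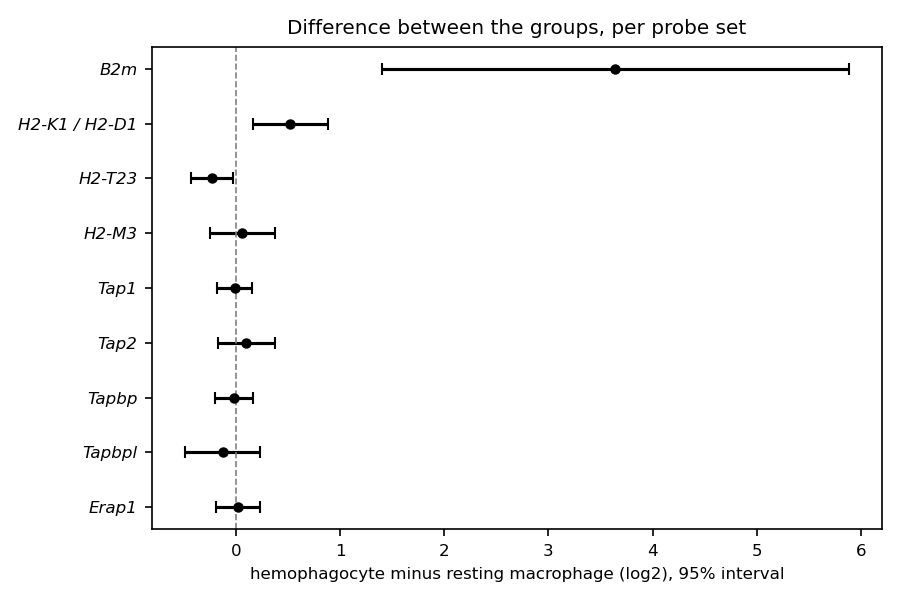
Difference between hemophagocytes and resting macrophages (log2, positive is higher in hemophagocytes) with its unadjusted 95% interval from limma, 1 row per probe set. The intervals take a common spread for both groups. B2m stands at 3.64 with an interval of 1.40 to 5.88, and the other 8 probe sets lie between -0.23 and 0.52.

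Of the 9 probe sets, 0 passed limma's adjusted threshold of 0.05 in either direction, where 0.00464% of all features passed as higher and 0% as lower. At an unadjusted p under 0.05 there were 2 higher (B2m and H2-K1/H2-D1), against 1.68% of features, and 1 lower (H2-T23), against 4.96%. The groups did not overlap in 0 of 9 probe sets, against 0.942% of features whose hemophagocyte values all lay above the resting ones and 2.96% whose values all lay below. The median difference of the 9 was 0.02, and 0.01 without B2m, beside -0.04 over all features. Differences above 0 were found in 5 of 9, where 36.6% of all features had one. Only B2m exceeded 1 log2 unit, as did 0.589% of all features. As the set was assembled with B2m's difference known, nothing is read from these shares.

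The genes whose signal over the 8 arrays was most like that of B2m, among 17081 single-gene features ranked by Pearson's r, were Tmsb4x (0.98), S100a11 (0.97), Ccdc70 (0.96), Ifitm3 (0.96) and Rbm3 (0.95). The 8 points share the split into 3 high hemophagocyte arrays and the rest, so such r values arise in any gene high on the same arrays. Tmsb4x, which encodes the actin-binding peptide thymosin beta 4, was at 7.77, 10.64, 10.52 and 10.85 on hemophagocytes 2, 3, 5 and 6, against 7.50, 8.69, 8.12 and 7.38 on resting macrophages 3, 4, 5 and 6. Ifitm3, an interferon-induced membrane protein that blocks virus entry, was at 6.65, 10.37, 10.65 and 11.46 on the hemophagocyte arrays, against 7.33, 7.33, 6.86 and 6.64 on the resting arrays. In both genes hemophagocyte 2 was within the resting range and the other hemophagocytes were above it, as for B2m. S100a11, a calcium-binding protein, ran from 7.91 to 8.86 in hemophagocytes and from 7.38 to 8.15 in resting macrophages. Ccdc70 and Rbm3, a cold-induced RNA-binding protein, ran over 4.89 to 5.12 and 5.02 to 6.16 in hemophagocytes, against 4.87 to 4.95 and 4.94 to 5.13 in resting macrophages.

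**Figure D3:**
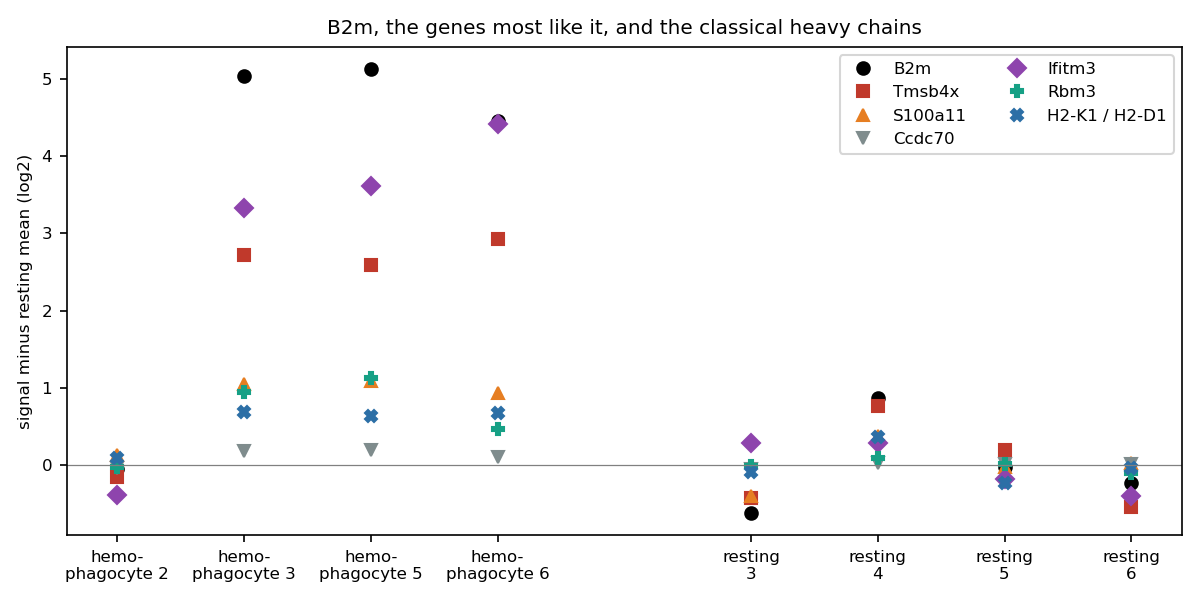
Signal minus the gene's resting mean (log2) on each array, hemophagocytes left and resting macrophages right, for B2m, the 5 genes most like it and the probe set of H2-K1 and H2-D1. On hemophagocyte 2 the genes sit near their resting mean, while on hemophagocytes 3, 5 and 6 B2m, Tmsb4x and Ifitm3 lie far above it and H2-K1/H2-D1 less so.

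Other genes of the pathway were taken from 5 lists, and 0 of their 49 measured members passed in limma over all features. Most of them were not distinguished from background, gauged by the receptor-gene percentile used above. Of 6 chaperones and 14 other class I chains, 0 lay above it on any array, and of 12 regulators 1 did on each array. Of 8 genes of export and cross-presentation, 1 did on resting macrophage 4 and 0 on every other array. Of 11 genes that supply peptide, 9 were measured and 7 had a difference above 0, with a median of 0.14 beside -0.04 over all features. Psmb8, a catalytic subunit of the immunoproteasome whose gene lies between Tap1 and Tap2, was at 6.54, 7.14, 7.12 and 6.77 on hemophagocytes 2, 3, 5 and 6, against 6.52, 6.28, 6.35 and 6.53 on resting macrophages 3, 4, 5 and 6. Its groups did not overlap, with hemophagocyte 2 just above the highest resting array, and the difference was 0.47 (SE 0.14, adjusted p = 0.736). Psmb10, another such subunit, and Psme1, a subunit of the proteasome activator PA28, did not overlap either, with differences of 0.38 and 0.17 and the same adjusted p. Their gaps were narrow. The lowest hemophagocyte value was 6.27 against a highest resting value of 6.23 for Psmb10, and 7.68 against 7.66 for Psme1. Psmb8 and Psmb10 lay below the receptor-gene percentile on every array. Of the 9 genes, only Psme1 lay above it on hemophagocyte arrays, and 0 did on resting arrays. At an unadjusted p under 0.05, Psmb8, Psmb10 and Psme1, 3 of the 9, were higher and 0 were lower, against 1.68% and 4.96% of all features. Groups lay apart upward in 0.942% of all features. In the other 4 lists 0 genes were higher at an unadjusted p under 0.05, and 1 regulator of transcription (Irf2) and 1 other class I chain (H2-K2) were lower. As the lists were chosen with earlier results of these arrays known, nothing is read from these shares.

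Chaperones of the endoplasmic reticulum had a median difference of 0.01 over 6 measured genes, 4 of them above 0. Pdia3, the ERp57 oxidoreductase of the loading complex, was at 4.16, 6.88, 6.03 and 4.48 on hemophagocytes 2, 3, 5 and 6, against 4.40, 4.78, 4.41 and 4.32 on resting macrophages 3, 4, 5 and 6. Only hemophagocytes 3 and 5 stood out, the arrays with most high values, and its difference of 0.91 (SE 0.51) did not pass (adjusted p = 0.742). Uggt1, which senses misfolded glycoproteins, was at -0.11, and Hspa5, the chaperone BiP, at 0.04.

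Among 12 measured regulators of class I transcription, 5 had a difference above 0 and the median was -0.01. Irf2, an interferon regulatory factor, had a mean of 5.63 ± 0.19 in hemophagocytes and 5.96 ± 0.11 in resting macrophages (difference -0.33, SE 0.10, adjusted p = 0.736). Nfyb and Nfyc, subunits of the factor that binds the Y box, had differences of -0.14 and -0.24. Nlrc5, the transactivator of class I genes, was singled out after its values were seen. Its mean was 9.21 ± 0.19 in hemophagocytes and 9.21 ± 0.10 in resting macrophages, a difference of 0.01 (95% interval -0.22 to 0.23).

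Other class I and class I-like chains had single-gene probe sets for 14 of 22 genes, of which 2 had a difference above 0, with a median of -0.06. H2-K2 ran from 6.13 to 6.28 in hemophagocytes and from 6.36 to 6.54 in resting macrophages, so the groups did not overlap, and the difference of -0.24 (SE 0.07) did not pass (adjusted p = 0.736). H2-Q4 was at 0.18 and H2-T24 at -0.14. A further 4 probe sets name several such chains, and 0 passed. One of them, for H2-T9, H2-T22 and H2-T10, was at 5.54, 5.60, 7.45 and 5.64 on hemophagocytes 2, 3, 5 and 6, against 5.43 to 5.52 on the resting arrays, so that hemophagocyte 5 alone carried most of its difference of 0.59. Genes of export and cross-presentation had a median of -0.05 over 8 measured genes, 2 of them above 0. Sec61a1 and Sec61b, parts of the channel through the membrane of the endoplasmic reticulum, were at -0.15 and -0.22, and Wdfy4, which cross-presenting dendritic cells need, was at 0.12. For Sec61b, resting macrophage 4 stood apart at 8.03, against 7.09 to 7.25 on the other resting arrays and 6.99 to 7.32 on hemophagocyte arrays.

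**Figure D4:**
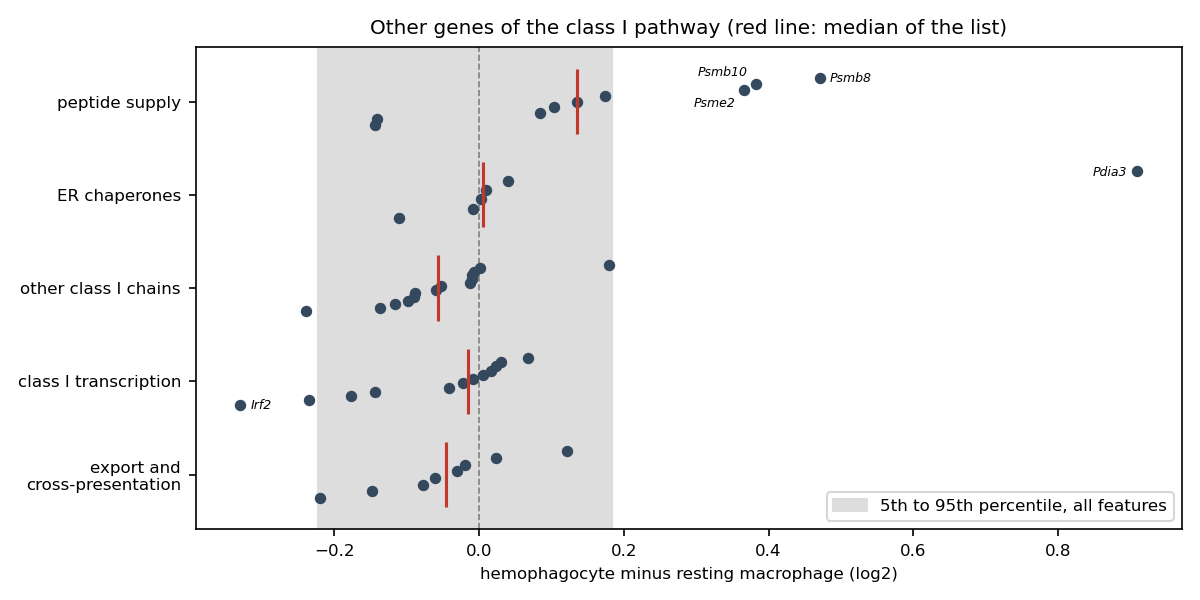
Difference between hemophagocytes and resting macrophages (log2, positive is higher in hemophagocytes) for each measured gene of 5 lists of the class I pathway; red lines are list medians and the grey band spans the 5th to 95th percentile of all features, -0.22 to 0.18. Psmb8, Psmb10 and Psme2 lie right of the band, Pdia3 far right at 0.91, and Irf2 (-0.33), H2-K2 (-0.24) and Nfyc (-0.24) left of it.

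B2m is made by nearly all nucleated cells, so markers of cells that could have been captured or engulfed are set beside it. The mean level of 6 B cell markers was 6.02 to 6.25 on hemophagocyte arrays and 6.16 to 6.29 on resting arrays, and 7 T cell markers averaged 6.55 to 6.66 and 6.49 to 6.62. For 9 natural killer cell markers these means were 6.05 to 6.41 and 6.45 to 6.50, for 5 erythroid markers 6.53 to 6.64 and 6.59 to 6.73, and for 8 dendritic cell markers 6.77 to 6.93 and 6.944 to 7.005. Of the B cell, T cell, natural killer cell and erythroid markers, 0 lay above the receptor genes' 95th percentile on any array. Of the dendritic cell markers, 1 did on every array. Neutrophil markers did on hemophagocytes 2 and 3 only (1 and 2), and 1 platelet marker on hemophagocytes 3 and 5 only. Differences above 0 were found in 2 of 6 B cell, 5 of 7 T cell and 1 of 9 natural killer cell markers. They were found in 1 of 5 erythroid and 0 of 8 dendritic cell markers, beside 36.6% of all features. The 10 neutrophil markers averaged 6.27 to 6.74 on hemophagocyte arrays and 6.28 to 6.36 on resting arrays. Of them, 3 had a difference above 0 and the median difference was -0.06. On hemophagocyte 3, S100a8 was at 8.02 and S100a9 at 9.12, while Ly6g, Mpo and Retnlg had their lowest values of the 8 arrays there, at 5.25, 7.05 and 7.29. Of the 4 platelet markers, Pf4 was at 10.35 on that array and Ppbp at 4.80, its lowest value. The 13 macrophage markers averaged 6.54 to 7.44 on hemophagocyte arrays and 6.50 to 6.64 on resting arrays. Of them, 9 had a difference above 0, while Csf1r, Spic, Cd163 and Slc40a1 were lower, and the median difference was 0.17. C1qc and Cd68 had the largest differences of these markers. On hemophagocyte 3 they were at 8.57 and 9.66. Cd163, Hmox1 and Spic had their lowest values of the 8 arrays there, at 5.51, 6.77 and 5.57. On hemophagocyte 5, where B2m was at 10.34, Pf4 was at 9.11, S100a8 at 6.41, S100a9 at 6.01, and the macrophage markers C1qc and Cd68 at 9.58 and 10.52. On hemophagocyte 6, where B2m was at 9.67, Pf4 was at 5.49, S100a8 at 5.12, S100a9 at 7.33, and C1qc and Cd68 at 7.06 and 7.50. On hemophagocyte 2, where B2m was at 5.17, Pf4 was at 6.10, S100a8 at 4.60, S100a9 at 6.35, and C1qc and Cd68 at 7.25 and 7.21. The highest resting values were 7.41 for Pf4, 5.02 for S100a8, 6.34 for S100a9, 7.33 for C1qc and 7.50 for Cd68. The part that other cell types had in the B2m values was not tested.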

How the data were processed

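Hemophagocytes and resting macrophages were compared on 4 arrays each. The authors deposited 1 value per array for every probe set, and their range is that of log2 signals. The submitters' processing notes name Affymetrix Expression Console 1.1. Probe summary, background correction and normalization: not given in the sources used here. Before hybridisation, RNA was amplified from few cells with the WT-Ovation One-Direct system, per the labels' protocols, which can lose or overstate single transcripts. No value was rescaled or filtered.

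For each of 19938 genes the single-gene probe set with the highest mean stood for it, and 1621 probe sets naming several genes were added, which gave 21559 features; 12146 probe sets without a listed gene were left out. Genes were named from the platform annotation, with 0 symbols altered by the RefSeq table. All features were fitted with limma 3.58.1 in R 4.3.3 (lmFit, then eBayes, without a block), p-values were adjusted by Benjamini-Hochberg over the whole table, and changes are hemophagocyte minus resting macrophage. Groups and replicate numbers came from the sample titles. Nothing says that samples came from separate mice, so the spread behind the p-values is only that between these samples and may be technical. With 4 arrays a group, their number limits the precision. The fit was checked on simulated data with independent normal noise of the same size in both groups. That check does not cover groups of unequal spread, as for B2m, or arrays with many high values.

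The members, gene lists and alternatives were chosen with earlier results of these data known. Every member is named; from each pathway list, up to 3 genes of smallest p where none passed; and the 5 genes most correlated with B2m, predicted genes and sensory receptors passed over. Same-numbered arrays had deviations from their group means that correlated at 0.17, 0.07 and 0.12 across genes for numbers 3, 5 and 6. Differently numbered arrays correlated at -0.24 to 0.18. These values do not settle whether the numbers mark pairs, and the sample titles do not say what a number stands for. The numbers were therefore not taken as pairs in the main fit, and the fit with them as a block is given below. No arrays were duplicates: the highest correlation between any 2 was 0.975.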

Additional observations from a re-analysis of the deposited data

Results flagged for a closer look

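In 2 of the 18 groups of 4 arrays examined (9 probe sets in either condition), 1 array stood apart from the other 3 by more than Dixon's 95% critical value; chance does this in about 1 of 20 groups. Both were hemophagocyte 2. For B2m it stood at 5.17, while the other hemophagocytes lay at 9.67 to 10.34, a gap of 0.871 of the whole range. For the probe set of H2-K1 and H2-D1 it stood at 7.53, while the others lay at 8.08 to 8.12, a gap of 0.926. The same array held 13 genes more than 1 log2 unit above their own median, against 30, 154 and 159 on the other hemophagocyte arrays and 7 to 16 on the resting arrays.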

How the results depend on the processing

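Over the 20 alternatives, B2m stayed above 0 in all and H2-K1/H2-D1 too (0.37 to 0.79), H2-T23 stayed below 0 (-0.28 to -0.16), and the median of the members was -0.02 to 0.08, the highest being that of 10 genes with their probe sets averaged; the filter on dim features left 8 probe sets (0.0057), and the settings with 9 gave at most 0.05. With single arrays left out, the B2m difference was 3.15 to 4.87 and 0 to 1 members passed, B2m being the 1 without hemophagocyte 2. With hemophagocyte 2 and resting macrophage 3 left out together, 1 member passed, B2m at 4.67 (adjusted p = 0.00356). With the replicate number as a block, 1 member passed, B2m at 5.16 (adjusted p = 0.00594); hemophagocyte 2 and resting macrophage 4 have numbers found in 1 group only and add nothing to that contrast. Members near 0 turned sign. Tap1 was 0.0017, 0.019 and 0.031 after quantile, median and cyclic loess scaling, 0.013 with the block and 0.048 without hemophagocyte 2 and resting macrophage 3. Tapbp was 0.0087 and 0.018 after median and cyclic loess scaling, 0.0019 with array weights, 0.023 without hemophagocytes 3 and 5, 0.027 with the block, and 0.57 as the mean of its probe sets, which then hold the pair that also names Rps3a1. Tapbpl was 0.040 with the block. With single arrays left out, Tap1 ran from -0.053 to 0.029, Tapbp from -0.072 to 0.014, Tapbpl from -0.26 to 0.0041, H2-M3 from -0.055 to 0.14 and Erap1 from -0.055 to 0.096. The filter on dim features removed Tap2, which has no value there. No member other than B2m passed under any of the 20. The cause of these shifts was not tested beyond the construction named.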

Other observations

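Another pair of probe sets is annotated to Rps3a1 together with Tapbp, and neither stood for Tapbp, since the single-gene probe set was brighter. On hemophagocyte 3 the signals were 9.09 and 9.03, and across hemophagocytes 2, 5 and 6 they spanned 4.23 to 4.77, against 4.06 to 5.61 on the resting arrays. On hemophagocyte 3 the single-gene Tapbp probe set was at 6.70, the lowest of the hemophagocyte arrays. The accessions listed for this pair include the RefSeq transcript of Rps3a1, a ribosomal protein, and none of the RefSeq transcripts of Tapbp.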
